A study of Rattus norvegicus with 4 samples.

Results

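NR8383, an established line of rat alveolar macrophages, gave signal for all 75 core genes of the cytosolic ribosome that could be matched to probes by name. The genes described here are the cytosolic ribosomal protein genes. They were chosen by name: probes for rat transcripts whose accession led to a symbol of Rpl or Rps with a digit, or to Rpsa, Rplp0, Rplp1 or Rplp2. The 7 kinase genes of the Rps6k type and 2 symbols of pseudogenes were left out. The rule found 90 genes of 16506 named genes measured, with 204 probes on 818 spots. Of these, 75 are core genes of the ribosome out of 77 looked for, 4 are paralogs and 11 carry the symbol of a numbered copy, such as Rpl17l5. The core genes Rpl37 and Rps9, and the paralogs Rpl7l1, Rpl10l, Rpl26l1, Rpl36al and Rpl39l, were not matched to a probe and were not analysed here.

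The study held 1 group: NR8383 cells kept for 4 h in DMEM with 10% fetal bovine serum and measured in 4 biological replicates, each on its own one-colour Agilent array. The cells had been through 20 passages in medium with 15% serum, and the condition also carries the letters ALI, which the labels do not spell out. There was no treated group, so no change with treatment could be asked of these genes. What the arrays can show is whether each gene was detected, how closely its level agreed between replicates, and whether the family moved together on 1 replicate. A level is the log2 signal of a gene minus the 75th percentile of log2 signal on the same array, averaged over its detected probes. Levels of different genes rest on different probes and are not ranked against each other. Ribosomal protein genes have many near-identical copies in mammalian genomes, and binding of 1 probe to several of their transcripts was not tested.

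The arrays differed in brightness. Replicates 1 to 4 had a 75th percentile of signal of 83.4, 112, 126 and 167, and between 50.9% and 58.9% of spots were well above background. The number of arrays limits the precision. Markers fitted the labelled cell type in part: of 7 alveolar macrophage markers measured, 6 were detected, namely Cd68, Csf1r, Spi1, Pparg, Mrc1 and Fabp4. The scavenger receptor Marco was well above background on 1 array. Of 12 markers of other lung cells, 2 were detected, Pecam1 and Cdh5, while Epcam, Scgb1a1, Col3a1, Lum, Elane, S100a8 and Cd3e were well above background on none. Sftpc and Cd3g were well above background on 2 arrays and Col1a1 on 1.

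Ribosomal proteins are made in near-equal numbers, since each ribosome takes about a single copy of most of them, and growing cells spend much of their transcription on this family. Their mRNAs are known for a run of pyrimidines at the 5′ end, the terminal oligopyrimidine tract, through which the growth kinase mTOR and the RNA-binding protein Larp1 control their translation. The large subunit joins amino acids, the small subunit reads the mRNA, and the stalk of Rplp0, Rplp1 and Rplp2 recruits the translation factors that use GTP.

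Stretches of 70 bases around the annotated start of transcription are printed here for genes on which the results below turn, from RefSeq windows of the assembly GRCr8. Each has 50 bases before the start and 20 from it, read 5′ to 3′ on the gene's own strand. Capitals mark the longest run of at least 5 pyrimidines that touches the 10 bases on either side of the start, and, in Rps7, also the motif TCTCGCGAGA. The first set shows the stalk genes Rplp0 (chr12:46718371-46718440, minus strand) and Rplp1 (chr8:71290853-71290922, minus strand), and 3 genes whose replicates are taken up below, Rpl9 (chr14:43247540-43247609, plus strand), Rps6 (chr5:106420521-106420590, minus strand) and Rps7 (chr6:50999426-50999495, minus strand).
Rplp0: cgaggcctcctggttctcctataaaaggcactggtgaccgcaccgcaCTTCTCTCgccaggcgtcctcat
Rplp1: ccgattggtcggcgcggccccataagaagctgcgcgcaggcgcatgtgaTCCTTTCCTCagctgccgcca
Rpl9: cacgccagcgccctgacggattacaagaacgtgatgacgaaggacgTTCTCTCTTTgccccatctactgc
Rps6: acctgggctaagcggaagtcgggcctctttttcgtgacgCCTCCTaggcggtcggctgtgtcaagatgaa
Rps7: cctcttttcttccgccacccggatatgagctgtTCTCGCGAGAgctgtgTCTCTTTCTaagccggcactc

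The second set pairs a paralog with its core gene, because the undetected members were among paralogs and copies: Rpl3l (chr10:14258396-14258465, plus strand) with Rpl3 (chr7:113507971-113508040, minus strand), Rpl22l1 (chr2:113683146-113683215, plus strand) with Rpl22 (chr5:168117911-168117980, plus strand), and Rps27l (chr8:76443608-76443677, plus strand) with Rps27 (chr2:177964587-177964656, minus strand). The paralogs Rpl22l1 and Rps27l hold no such run, and the run of Rpl3l begins after the start. Yet Rpl22l1 and Rps27l were detected and Rpl3l was not, and 2 of the 4 windows of undetected members have a run. Runs are not confined to core genes or shared by all of them: 52 of 61 core windows and 5 of 12 windows of paralogs and copies have one. The core gene Rpl41 has none. Of all rat windows 43.4% have one, so the share in paralogs and copies (41.7%) is near that of genes at large.
Rpl3l: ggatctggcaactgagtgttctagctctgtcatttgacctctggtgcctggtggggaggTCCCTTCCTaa
Rpl3: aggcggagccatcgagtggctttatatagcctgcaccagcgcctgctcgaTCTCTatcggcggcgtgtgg
Rpl22l1: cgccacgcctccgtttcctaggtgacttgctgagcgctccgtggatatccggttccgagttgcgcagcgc
Rpl22: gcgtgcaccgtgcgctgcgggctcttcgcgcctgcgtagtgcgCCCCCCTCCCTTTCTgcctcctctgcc
Rps27l: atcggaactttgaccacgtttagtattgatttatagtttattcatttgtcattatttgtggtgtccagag
Rps27: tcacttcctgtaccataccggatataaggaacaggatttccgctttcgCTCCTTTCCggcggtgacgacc

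RefSeq gave 73 windows for 72 of the 90 genes, each of 250 bases before the start and 50 from it. The features counted were chosen after looking at these windows, so the shares are descriptions. A C at the annotated start followed by at least 4 more pyrimidines stood in 23 of the 73 windows (31.5%), against 2.63% of 33469 windows of all rat genes. All 23 belonged to core genes (37.7% of 61 core windows), and 0 of the 12 windows of paralogs and numbered copies had it. Of windows for translation factors 0 of 39 had it, and 6.12% of those for ribosome assembly genes. A run of at least 10 pyrimidines touching the 10 bases around the start was in 49.3% of the family's windows and in 6.56% of all windows.

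Other letters searched on both strands were also more frequent in the family than in all windows. The motif CTTTCC, which can lie within a pyrimidine run, was in 47.9% of the family's windows and 26.4% of all. The motif CCGGAAG, letters known from sites of ETS factors, was in 27.4% and 8.75%. It was also in 42.9% of windows of ribosome assembly genes, 33.3% of those of mitochondrial ribosomal proteins and 23.1% of those of translation factors. The palindrome TCTCGCGAGA, of all words of 10 letters that equal their own reverse complement the one in most of the family's windows, was in 8 of the 73 windows, those of Rpl4, Rpl10a, Rpl17, Rpl26, Rps6, Rps7, Rps19 and Rps28, against 0.373% of all. The letters AAGATGGC, known from sites of the factor YY1, were in only 5 of the family's 73 windows (6.85%) and in 3.17% of all. They were in 22.8% of windows of mitochondrial ribosomal proteins, 12.8% of those of translation factors and 4.08% of those of ribosome assembly genes. A match here is only a run of letters, and nothing was measured of binding.

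A gene was called detected when at least 1 of its probes had most spots well above background, and had them so on all 4 arrays. By this call 86 of the 90 genes were detected (95.6%), against 53.1% of all named genes. Of their probes 196 of 204 were detected, against 40.3% of all probes. All 42 large-subunit genes, all 3 stalk genes and all 30 small-subunit genes measured were among them, as were 2 of the 4 paralogs and 9 of the 11 numbered copies. The looser flag for a signal that was positive and significant, and a limma test above the 95th percentile of negative controls, each took in all 90 genes, against 66.9% and 69.8% of all named genes, and 202 of the 204 probes, against 57.1% and 60.6% of all probes. With 3 of the 4 arrays enough, 88 genes were detected, against 57.3% of all, and 199 probes, against 45.3%.

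The 4 genes not detected were all copies or paralogs. Rpl3l, the paralog of Rpl3 known from heart and skeletal muscle, had processed signals of 15.7, 8.39, 16.9 and 19.1 on replicates 1 to 4 and was well above background on 3 arrays. Rps4y2, a paralog of Rps4x, gave 7.27, 5.53, 15.3 and 30.4, and was well above background on 2 arrays. Both signals lay far below the 75th percentile of their array on every replicate. The numbered copy Rps12l4 had 7.23, 16.7, 15.4 and 27.6 on its first probe, which passed on 3 arrays, and at most 4.92 on the other, which passed on none. Rpl27l2 had signals between 3.25 and 12.6 on its 2 probes and passed on no array. The 95th percentile of negative controls was between 3.07 and 3.60, and of these signals only the second probe of Rps12l4 on replicate 3, at 2.56, was under that of its array. The detected copy Rpl39l5 was nearly as dim as some of them, with signals of 18.7, 16.6, 27.5 and 30.7 on its single probe.

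Probes of 1 gene fell on both sides of the call in 2 of the 58 genes of the family with several probes. The share was 25.5% of all named genes with several probes. Since 196 of the family's 204 probes were detected, there was little room for such a split. Rpl28, a protein of the large subunit, had 1 probe of 10 spots at 6.74, 6.51, 6.65 and 6.38 on replicates 1 to 4, and another with processed signals of 3.29, 4.40, 5.28 and 9.41 that was well above background on none. Rpl36a had 3 detected probes and another well above background on 3 arrays. As levels, the dim probe of Rpl28 was at -4.66, -4.67, -4.58 and -4.15 (SD 0.25), and the SD of the bright probe was 0.16. In both genes, the dim probe lay far below the rest of the gene on every array, by more than any probe varied between arrays.

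The stalk was detected in full. Rplp0, which anchors the stalk to the large subunit, lay at 10.16, 9.87, 10.23 and 9.88 on replicates 1 to 4 (10.03 ± 0.19, SD, n = 4). Its partner Rplp1 was at 9.84, 9.46, 9.83 and 9.51 (9.66 ± 0.21), and Rplp2 at 8.87, 8.53, 8.58 and 8.59 (8.64 ± 0.16). Rplp0 and Rplp1 were both higher on replicates 1 and 3 than on replicates 2 and 4, while Rplp2 stood higher on replicate 1 alone. With 1 probe of 1 spot each, Rplp0 and Rplp1 have no repeat within an array.

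In the large subunit, mean levels lay between 4.85 and 10.53. Rpl3, which lies beside the site where amino acids are joined, was at 9.14, 8.73, 8.70 and 8.55 (8.78 ± 0.25), with replicate 1 above the rest. Rpl4, which lines the exit tunnel of the new protein, was at 7.95, 7.62, 8.13 and 7.90 (7.90 ± 0.21). Rpl6 was at 8.21, 8.28, 8.19 and 8.04 (8.18 ± 0.10), and Rpl7 at 7.37, 7.48, 7.51 and 7.41 (7.44 ± 0.06). The range between replicates was 0.24 in Rpl6 and 0.14 in Rpl7, on the log2 scale. Rpl41, the smallest ribosomal protein, lay at 10.62, 10.53, 10.57 and 10.41 (10.53 ± 0.09).

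The small subunit gave mean levels between 6.28 and 9.34. Rpsa, first described as a receptor for the matrix protein laminin, was at 6.40, 6.67, 6.88 and 6.59 (6.64 ± 0.20). Rps2 was at 8.33, 8.72, 8.62 and 8.45 (8.53 ± 0.17), and Rps3, at the entry of the mRNA channel, at 8.35, 8.50, 8.57 and 8.45 (8.47 ± 0.09). In all of these replicate 1 was the lowest. Rps3a lay at 8.46, 8.82, 8.81 and 8.69 (8.70 ± 0.17), again lowest on replicate 1, and Rps4x at 6.25, 6.37, 6.24 and 6.26 (6.28 ± 0.06).

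Some members are known for work outside protein synthesis. Rpl5, Rpl11, Rpl23 and Rpl26 can bind Mdm2, the ligase that degrades p53, or otherwise raise p53 when ribosome assembly fails. Rpl5, which with Rpl11 forms a complex on 5S ribosomal RNA, was at 6.91, 7.32, 7.24 and 7.26 (7.18 ± 0.19), and Rpl11 at 7.68, 7.90, 8.04 and 7.88 (7.88 ± 0.15). Both partners were lowest on replicate 1. Rpl23 was at 9.34, 9.29, 9.47 and 9.30 (9.35 ± 0.08) and Rpl26 at 8.94, 8.62, 8.81 and 8.68 (8.76 ± 0.14), and neither had its lowest value there. Rps7, another protein that can bind Mdm2, was at 8.33, 8.10, 8.09 and 7.83 (8.09 ± 0.20), lowest on replicate 4. All 9 genes of the list of Mdm2 binders were detected, as were 95.6% of the whole family and 53.1% of all named genes. Their median SD was 0.14, the same as that of the family, so neither value sets them apart from it.

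Rpl13a leaves the ribosome in human monocytic cells stimulated with interferon gamma and then blocks translation of inflammatory mRNAs. Here it was at 8.14, 7.97, 8.08 and 8.03 (8.06 ± 0.07). Rps19, whose dimer attracts monocytes and which is mutated in the human anaemia of Diamond and Blackfan, was at 8.60, 8.40, 8.56 and 8.43 (8.50 ± 0.10). As means of their probes, both varied by little between arrays. Single probes varied more: those of Rpl13a had SDs of 0.12, 0.081, 0.098 and 0.22, and those of Rps19 between 0.10 and 0.24. On replicate 1 the probes of Rpl13a differed from the other replicates by 0.17, -0.12, 0.13 and 0.29. Rps6, the ribosomal protein phosphorylated by the S6 kinases, was at 7.65, 8.21, 8.09 and 8.10 (8.01 ± 0.24), and so was lowest on replicate 1. Its probe has 10 spots, whose standard error on an array was 0.060, 0.019, 0.013 and 0.012. These errors are all smaller than the difference of replicate 1 from the others, but they cover the spots of 1 array and not the separate cultures.

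Other genes mutated in that anaemia were looked at with their values already seen. Rps24 was at 7.88, 7.95, 7.96 and 7.72 (7.88 ± 0.11) and Rps26 at 8.86, 8.73, 8.70 and 8.57 (8.72 ± 0.12). Rpl35a was at 7.53, 7.27, 7.41 and 7.06 (7.32 ± 0.20). Each of these 3 was lowest on replicate 4, where 74 of the 86 members lay below their mean. Rps10, also mutated there, was at 7.25, 7.06, 7.18 and 7.13 (7.15 ± 0.08), lowest on replicate 2, and Rpl5 and Rpl11, mutated there too, were lowest on replicate 1. Rps14, whose loss accounts for the anaemia of a human syndrome with a deletion on chromosome 5, was at 7.92, 7.85, 7.92 and 7.66 (7.84 ± 0.13), lowest on replicate 4.

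The detected paralogs lay beside their core genes as follows, with no order read from probe to probe. Rpl22l1 was at 1.33, 1.68, 1.97 and 1.80 (1.69 ± 0.27) and Rpl22, known from mice to be needed for T cell development, at 7.06, 6.94, 7.10 and 6.90 (SD 0.09). Rps27l, induced by p53 in human cells, was at 6.88, 7.04, 7.11 and 6.82 (6.96 ± 0.14) and Rps27 at 8.54, 8.42, 8.45 and 8.22 (8.41 ± 0.13). Of Rpl22l1, 1 probe averaged 4.03 and the other -0.64, so its mean rests on probes that differ. Among the numbered copies, mean levels ran between -2.39, for Rpl39l5, and 8.25, for Rpl37al3.

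**Figure D1:**
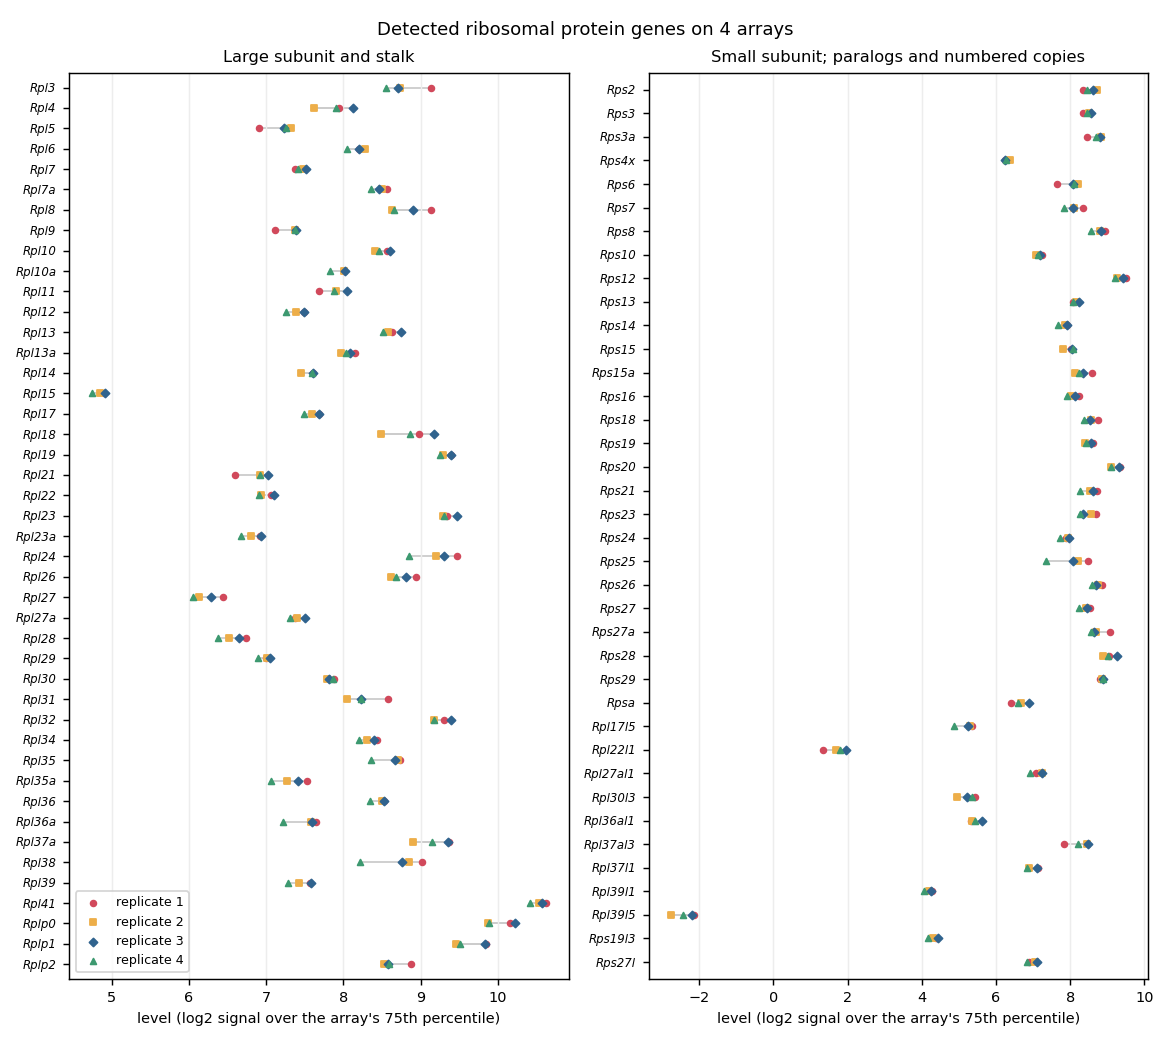
Level of 82 of the 86 detected ribosomal protein genes on the 4 arrays (x axis: log2 signal over the array's 75th percentile; 1 row per gene, 1 marker per replicate, grey line from the lowest to the highest). The 4 markers of a gene lie within 1 log2 unit in all genes but Rps25, and the row positions come from different probes, so rows are not ranked.

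Between arrays the family varied less than detected genes at large. The SD over the 4 replicates had a median of 0.14 in the 86 detected genes (interquartile range 0.095 to 0.198), and a median of 0.24 in all 8772 detected genes. In the 2193 detected genes with the highest levels, the median SD was 0.19. Their levels start at 3.15, so they include most members. Their median level was 4.43, against 8.08 in the family, so they are not matched to it in level. Without replicate 1 the gap was narrower, with a median SD of 0.12 for members and 0.15 for all detected genes. Within the family it was 0.12 in the large subunit, 0.19 in the stalk and 0.14 in the small subunit, and 85 of the 86 genes kept a range under 1. Across the 86 genes, the levels of any pair of arrays correlated at r between 0.989 and 0.997, and those of all detected genes between 0.969 and 0.993. Replicates 3 and 4 differed by a median of 0.20 in members and 0.17 in all detected genes. Genes share the arrays and are not independent replicates, so this is a description only. The family also had more probes per gene, 204 for 90 genes against 20990 for the 16506 named genes. A mean over more probes tends to vary less, and its part in the gap was not tested. Among probes printed 10 times, each taken singly, the median SD between arrays was 0.13 in members and 0.16 in all such probes.

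The lowest SDs were those of Rpl30, with 7.88, 7.79, 7.81 and 7.86 on replicates 1 to 4 (SD 0.043), Rps29, with 8.79, 8.87, 8.89 and 8.89 (SD 0.045), and Rps4x (SD 0.058). In Rpl30 and Rps29 this is a mean of probes that moved in opposite directions. The probes of Rpl30 had SDs of 0.054, 0.29 and 0.17, and on replicate 1 they differed from the other replicates by -0.08, 0.57 and -0.30. The probes of Rps29 had SDs of 0.29, 0.20 and 0.23. Rps4x has a single probe of 10 spots. Among those with the highest SD were Rps25, Rpl38, Rpl37al3 and Rpl18. Rpl37al3 was at 7.82, 8.46, 8.49 and 8.22, lowest on replicate 1, and Rpl18 at 8.98, 8.48, 9.17 and 8.86, lowest on replicate 2. Rpl37al3 and Rpl18 each rest on a single spot.

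Rps25 and Rpl38 were low on replicate 4 and had a spot in or near one stretch of the array surface. Rps25 was at 8.47, 8.22, 8.08 and 7.34, a difference of replicate 4 from the mean of the others of -0.91. Rpl38, which in mice controls translation of Hox mRNAs, was at 9.02, 8.85, 8.76 and 8.22 (-0.66). The stretch is the box, with a margin of 5 positions, around the 77 detected probes that were over 2 log2 units lower on replicate 4 than on the other arrays. A probe of Rps25, with a difference of -2.11 on replicate 4, was itself among the probes that set the box. Its place inside, and the smaller difference of Rps25 without it, thus follow from how the box was drawn. The probe of Rpl38 with a difference of -1.83 did not set the box. The stretch held 20 spots of 18 members.

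Without those spots, the difference of replicate 4 was -0.08 for Rpl38, with an SD of 0.07, and -0.31 for Rps25, with an SD of 0.16. In Rps25, the probe inside was at 9.02, 8.50, 7.87 and 6.35, and the probes outside were at 8.12, 8.13, 8.23 and 7.84, and at 8.28, 8.03, 8.14 and 7.84. For Rpl9, Rpl12, Rpl13, Rpl21, Rpl27, Rpl30, Rpl35a, Rpl36a, Rplp2, Rps13, Rps14, Rps15 and Rps16, leaving those spots out kept the sign of the difference. The probes of most of these have 10 spots, of which 1 lay in the stretch.

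Some deviations of 1 array were high. Rps25 was 0.59 above the mean of the others on replicate 1, and 0.17 above it without the spot in the stretch. Rpl3 was 0.48 above and Rps27a, made as a fusion with ubiquitin, 0.44. Rps27a was at 9.08, 8.70, 8.64 and 8.57, and each of its 4 probes was highest on replicate 1.

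The family moved a little with the array as a whole. As deviations from a gene's 4-array mean, the members had medians of 0.086, -0.011, 0.070 and -0.11 on replicates 1 to 4. Medians over all detected genes were 0.053, -0.0018, 0.023 and -0.051, and over those 2193 genes of highest level 0.089, 0.0016, 0.036 and -0.11. On replicates 1 and 4 the family's medians were thus close to those of the 2193 genes. Most members are among these genes, which are not matched to the family in level. Members above their mean numbered 64 of 86 for replicate 1, where the background was 55.8% of all detected genes. They numbered 37 for replicate 2 (background 49.6%), 73 for replicate 3 (background 56.1%) and 12 for replicate 4 (background 40.6%). Of the 2193 genes of highest level, 63.2%, 50.5%, 61.5% and 25.8% lay above their mean on replicates 1 to 4, and of the members 74.4%, 43.02%, 84.9% and 13.95%.

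These directions depend on the scaling. Under quantile normalization the medians were -0.037, 0.036, 0.043 and -0.0040 on replicates 1 to 4, and under normexp background correction they were -0.081, -0.044, 0.10 and 0.062. So replicate 1 changed sign under both, replicate 2 under quantile normalization and replicate 4 under normexp, while replicate 3 stayed positive. The share of spots well above background was lowest on replicate 1 and highest on replicate 4, and its part in these medians was not tested.

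**Figure D2:**
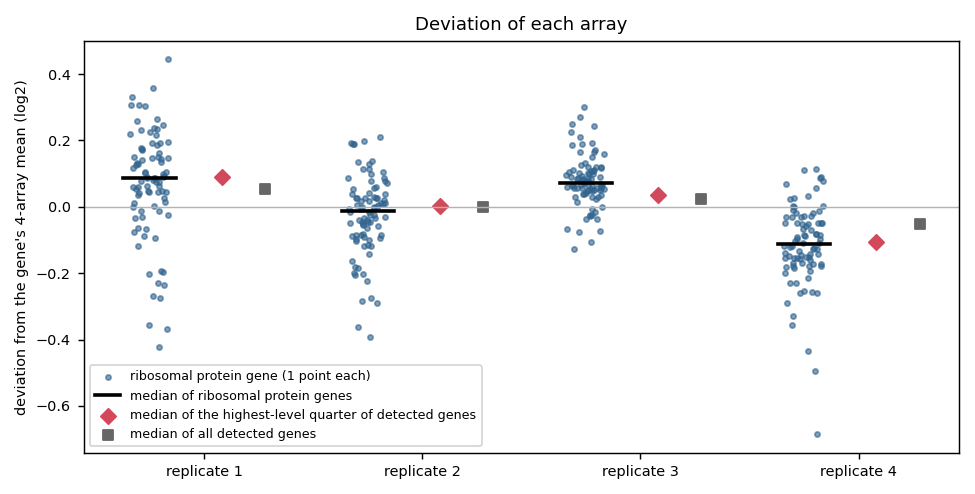
Deviation of each detected ribosomal protein gene from its own 4-array mean (y axis, log2; 1 point per gene, sideways spread only for visibility), by replicate, with the family's median (bar), the median of the 2193 detected genes of highest level (diamond) and that of all detected genes (square). The family's medians of 0.086 and -0.11 on replicates 1 and 4 lie beside those of the 2193 genes, and both change sign under normexp. Most members are among the 2193 genes.

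Replicate 1 did not move all members one way. Of 55 members with several detected probes, 23 had every probe above the mean of the other replicates on replicate 1, 25 had probes on both sides and 7 had every probe below: Rpl5, Rpl9, Rpl11, Rps2, Rps3, Rps13 and Rpsa. Probes of 1 gene share the RNA of the array, so they are repeats of the measurement and not of the cells. In Rpl9, which has 5 probes and 41 spots, the probes were lower on replicate 1 by 0.23, 0.28, 0.36, 0.29 and 0.19. Rpl9 as a whole was at 7.11, 7.37, 7.38 and 7.38 (7.31 ± 0.13), so that replicates 2 to 4 lay within 0.012 of each other. Rpl5 was lower on replicate 1 by 0.55 and 0.18 on its 2 probes, and Rpl11 by 0.26 and 0.25. Cell markers stood apart on replicate 1 as well: Mrc1 was at 3.71, 2.23, 2.31 and 2.50, Pparg at 6.86, 5.78, 6.03 and 5.97, and the endothelial marker Pecam1 at 1.19, -0.50, -0.05 and 0.12 on replicates 1 to 4. Over the 6 detected macrophage markers the median deviation there was 0.42, with 4 above their mean and 2 below, and the part of the markers in these values was not tested.

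The 7 genes were chosen for this pattern, so it carries no test. On the other scalings the median difference of replicate 1 from the others in the 7 genes was -0.40 (quantile), -0.35 (percentile over detected probes) and -0.65 (normexp) and -0.26 as chosen. Of the 23 genes with every probe higher, 14 stayed above under quantile normalization, 20 under the percentile over detected probes and 11 under normexp. Each of these scalings lowers replicate 1 in the family, so genes chosen as lower had little room to change sign, and their keeping it is no sign of stability.

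**Figure D3:**
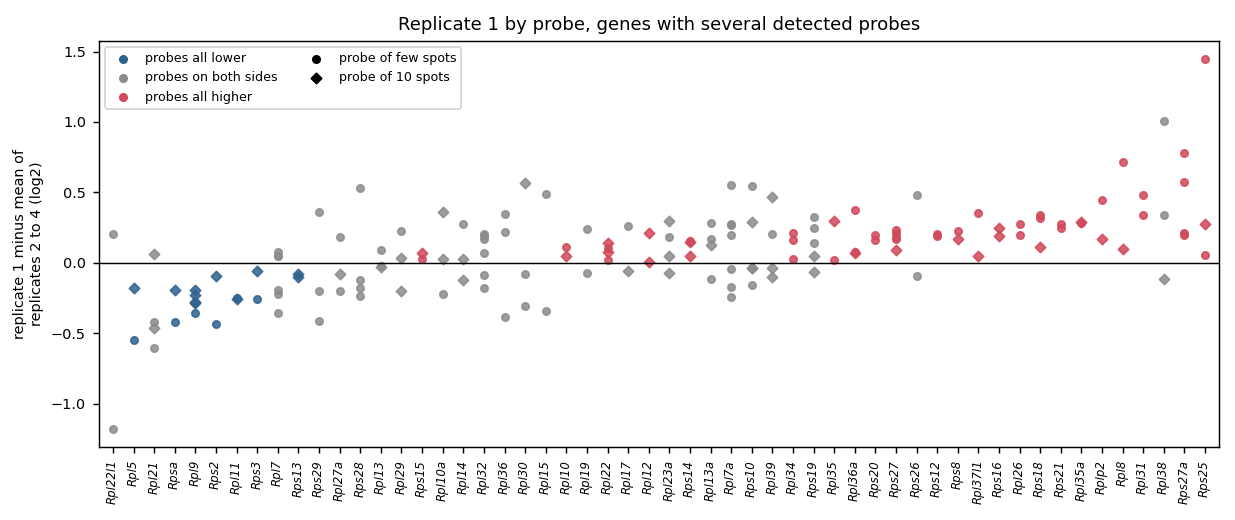
Difference of replicate 1 from the mean of replicates 2 to 4 (y axis, log2) for each detected probe of 54 of the 55 ribosomal protein genes with several (x axis, ordered by the gene's mean difference; diamonds are probes of 10 spots). Among the genes plotted, in 7 all probes lie below 0, in 23 all lie above and in 24 they lie on both sides.

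Many ribosomal protein probes are printed 10 times on the array, which separates the error of a spot from the spread between replicates. There were 68 such member probes in 47 genes. Their SD between spots of 1 array had a median of 0.092 and their SD between arrays 0.13, against 0.10 and 0.16 for all 1044 probes printed so. The SD between arrays was above the SD between spots in 49 of the 68 member probes (72.1%), and in 76.9% of all probes printed so. These SDs are not on the same footing, since that between arrays is taken over means of spots and the other over single spots. A probe under equality can therefore still vary between arrays by more than the error of its mean. The mean of the spots on an array had a median standard error of 0.026, an error that covers the spots of 1 array and not the separate cultures.

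**Figure D4:**
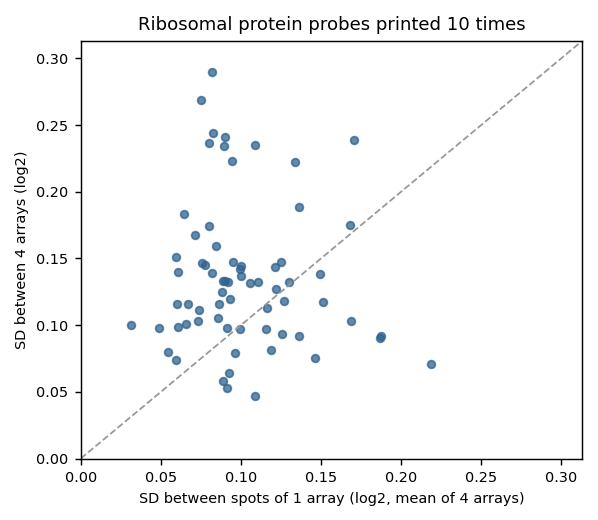
SD between the 4 arrays (y axis, log2) against the SD between spots of 1 array, averaged over arrays (x axis, log2), for the 68 ribosomal protein probes printed 10 times (1 point each; dashed line, equality). Of the points, 49 lie above the line. The y axis is taken over means of spots and the x axis over single spots, so the line does not mark the error of a mean.

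Genes listed for the rest of the translation machinery were detected too where measured, beside 53.1% of all named genes. Of ribosomal proteins that go by other names, Fau, a fusion of a ubiquitin-like protein with a small-subunit protein, was at 8.29, 8.15, 8.19 and 8.06, and Rack1, a scaffold on the small subunit, at 6.84, 6.70, 6.49 and 6.41. Rack1 was highest on replicate 1, and Fau varied by little. Of 42 translation factors listed, 39 were measured and all 39 were detected, with a median SD of 0.17. They include the elongation factors Eef1a1 (8.87, 8.77, 8.65 and 8.68), Eef1a2 (1.73, 1.37, 2.01 and 1.99) and Eef1b2 (7.72, 7.92, 7.71 and 7.62).

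All 49 ribosome assembly genes measured were detected (median SD 0.17), among them the subunits of RNA polymerase I Polr1a (0.66, 0.86, 0.99 and 0.88), Polr1b (0.19, 0.47, 0.43 and 0.40) and Polr1c (5.64, 5.54, 5.56 and 5.32), the last also a subunit of RNA polymerase III. All 68 mitochondrial ribosomal protein genes measured were detected (median SD 0.20), such as Mrpl1 (1.70, 2.14, 2.22 and 1.94), Mrpl10 (6.98, 6.67, 6.96 and 6.80) and Mrpl12 (6.01, 6.06, 6.13 and 5.92). The median deviation on replicate 1 was 0.13 for them, -0.041 for translation factors and -0.070 for ribosome assembly genes, against 0.086 for the cytosolic ribosomal proteins. Of all named genes 53.1% were detected, and no test was run between these lists.

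Of the growth signalling genes that govern this family, 15 of 16 measured were detected, against 53.1% of all named genes. The kinase Mtor was at -1.09, -1.29, -1.04 and -1.10, its partner Rptor at 4.44, 3.49, 3.77 and 3.68 and Mlst8 at 2.05, 2.04, 2.13 and 1.98. Rptor stood higher on replicate 1 than on the others, by more than they differed among themselves. The exception was the kinase Rps6ka2, which was well above background on no array. The RNA-binding protein Larp1 was not matched to a probe and was not analysed here.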

How the data were processed

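Total RNA of 4 samples was hybridised to one-colour Agilent arrays. Per the file headers, the authors deposited the intensity of each spot in linear units, as a processed signal and as median foreground and background signals, none scaled between arrays. Per the submitters' processing notes, Agilent Feature Extraction 11.0.1.1 read the scans.

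Of 62976 spots, 4259 control spots and those marked as outliers (440 to 1206 per array) were left out, and no spot was saturated. Log2 processed signals of 1 probe were averaged and the array's 75th percentile subtracted. Unversioned accessions were matched to RefSeq symbols (GRCr8, names only), which named 17614 of 40539. The files' annotation is on another build, so no coordinates of probes are given; those printed belong to the RefSeq windows. No protein sequences were used here.

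Members and lists were chosen with earlier results of these data known. Genes were named by a rule: of each role list the first 5 detected, every undetected core gene and every paralog, the 5 highest and 3 lowest SDs, the 3 highest single-array differences each way, genes with probes on both sides of the call, and members near the dim stretch; of other lists the first 3 detected. Some genes are not reported here by name, though counts and medians include them. Undetected copies, Rpl41, Rps7, Rps10, Rps24, Rps26, Rpl15, Rpl39l5, and the genes with one direction on all probes were named after their values were seen.

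Without groups there was no test, except limma detection against negative controls (Benjamini-Hochberg adjusted p under 0.05). Normexp (offset 50) was planned on mean signals, and median signals stood in. List summaries and limma detection were tested on simulated data. Slide and scan were shared by all arrays, so neither could be tested as a batch. Computation used R 4.3.3, limma 3.58.1, the data.table package (version 1.17.8), Python 3.11.15, numpy 2.4.6, pandas 2.3.3 and matplotlib 3.10.9.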

Additional observations from a re-analysis of the deposited data

Results flagged for a closer look

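In 9 of the 86 detected genes (10.5%), 1 replicate stood apart from the other 3 by more than Dixon's 95% limit for 4 samples, against 8.41% of all detected genes; chance alone marks about 1 in 20. The value given is the gap to the nearest other replicate as a share of the gene's whole range. Replicate 4 was the lowest in Rpl10a (0.917), Rpl36 (0.850) and Rpl36a (0.876), the last of which has a spot in or near the dim stretch on that array. Replicate 1 was the lowest in Rpl9 (0.958), and replicate 2 the lowest in Rpl14 (0.924) and the highest in Rps4x (0.857). These 6 genes had small ranges on the log2 scale, among them 0.12 in Rps4x, 0.16 in Rpl14 and 0.42 in Rpl36a. The flags are of gene means, which not all probes shared. In Rpl14 the probe of 1 spot was lowest on replicate 2, and the probes of 10 spots on replicates 1 and 4. In Rpl10a a probe was lowest on replicate 1, and in Rpl36 probes were lowest on replicates 1, 3 and 4. Every detected probe of Rpl9 and Rpl36a was lowest on the replicate named.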

How the results depend on the processing

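The number of detected members was between 85 and 90 under the alternatives of the call and the probe, and between 86 and 87 with 1 replicate left out. Detected probes were between 193 and 202, and between 196 and 198. The median SD was between 0.10 and 0.17, and between 0.11 and 0.15 with 1 replicate left out, when that of all detected genes was between 0.15 and 0.26. With normexp, the median deviation was -0.081 on replicate 1 and 0.062 on replicate 4, both of opposite sign to 0.086 and -0.11; the cause was not tested. With 1 replicate left out, the median deviation was between 0.040 and 0.10 on replicate 1, -0.067 and 0.011 on replicate 2, 0.031 and 0.10 on replicate 3, and -0.13 and -0.090 on replicate 4. Without the dim stretch, 85 genes gave a median SD of 0.14. Without replicate 1, the mean level of Rpl36a was 4.98 in place of 7.51, because its dim probe then counted as detected. No paired analysis was possible because the labels give 1 group. The 75th percentile signal over that of negative controls was lowest on replicate 1, and its part in the call of dim copies was not tested.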

Other observations

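Probes of 1 ribosomal protein gene often gave different levels. In the 55 members with several detected probes, the span of their mean levels had a median of 1.33 and a range of 0.090 to 8.87, on the log2 scale. In Rpl15, 1 probe was at 0.16, 0.46, 0.58 and 0.48 on replicates 1 to 4 and the other at 9.65, 9.25, 9.24 and 9.01. In 30 of 35 members with both kinds of probe (85.7%), the probes printed 10 times lay below every probe printed once, with a median difference of -1.34. In other genes that was so in 10 of 102 (9.80%). No sequences of the probes were used here, and no cause was tested.

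Replicate 4 was the array farthest from the others in 38 of 86 members (44.2%), against 18.8% of all detected genes, and replicate 1 in 28 (32.6%), against 54.7%. These shares were not counted in the 2193 detected genes of highest level. Those genes, which include most members, were low on replicate 4 too. Their median deviation was -0.11, as in the members, and 25.8% lay above their mean. With normexp the members' median on replicate 4 was 0.062.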
